A study of Sus scrofa with 12 samples.

Results

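The collagen genes of pig induced pluripotent stem cells were taken as every row of the deposited expression tables whose gene symbol reads COL, a number, A and a number. The rule gave 29 of 24358 genes, and it used no measured value. Of these, 20 had a mean of at least 0.1 FPKM over the 12 libraries and are called expressed here, and 9 did not. FPKM counts sequenced fragments per gene after scaling for gene length and for the size of the library.

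RNA sequencing covered 4 groups of 3 libraries. WT libraries came from PC-iPS cells, pig iPS cells derived from pericytes and grown in LCDMV (LIF, CHIR99021, DIM, MIH and vitamin C). Knock-in libraries came from NANOG tdTomato knock-in PC-iPS cells, in which the red fluorescent protein tdTomato is joined to the pluripotency gene NANOG. These cells were put in LCDMV after antibiotic selection. No other medium is named for the untreated knock-in libraries in the sources used here. Each of the 3 knock-in lines was a separately transfected population, selected with antibiotics and sorted for tdTomato, so it is not 1 clone and its NANOG level was part of the selection. WT cells went through neither the transfection nor the sort. Activin A and SB431542 libraries came from knock-in cells in T1, which is LCDMV without LIF, with either Activin A (a ligand of the TGF-β family) or SB431542 (an inhibitor of the receptors for TGF-β and Activin). The study's methods name concentrations of both agents for its reporter cultures. Which of them, and what duration and feeder layer, apply to the sequenced cultures is not given in the sources used here. Feeder cells were removed before RNA extraction by letting them attach for 1 h.

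Collagens are proteins of the extracellular matrix, built from alpha chains that wind around each other in a helix, and each alpha chain has its own gene. Fibrillar collagens form the banded fibrils of skin, bone and cartilage, network collagens form sheets such as basement membranes, and smaller classes decorate fibrils or span the cell membrane. Vitamin C, a component of the culture medium, is a cofactor of the hydroxylases that modify collagen chains inside the cell. TGF-β signalling is known as an inducer of fibrillar collagen genes in fibroblasts.

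The 12 libraries summed to between 364241 and 390320 FPKM and listed between 15339 and 15827 genes above 0. FPKM holds no read number, so depth is unknown. A relative depth was estimated from genes under 0.3 FPKM, as the ratio that recurs most often between a library and knock-in 1. It lay between 0.559 and 0.633 in WT and between 0.727 and 1 in the other groups. NANOG lay between 9.71 and 27.6 FPKM in WT, 52.0 and 101 in knock-in, 109 and 195 in Activin A, and 11.8 and 27.2 in SB431542. Of 13 pluripotency markers 11 were found by symbol. Their sum was 139 to 157 FPKM in WT and 285 to 514 in knock-in cells. LIN28A averaged 40.2 FPKM in WT and 185 in knock-in cells, and CDH1 1.56 and 8.36. SALL4 averaged 13.8 and 13.7 FPKM, and DNMT3B 27.3 and 20.3. SOX2 lay between 39.1 and 71.5 FPKM, whereas ZFP42 was listed at 0 throughout and TFCP2L1 reached at most 0.057 FPKM.

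Summed over the 29 genes, collagen mRNA was 86.7 ± 14.7 FPKM (SD, n = 3) in WT and 195 ± 36.5 in knock-in cells. The sums were 69.9, 97.1 and 93.2 in WT and 209, 223 and 154 in knock-in cells, so the groups did not overlap. In the other table, Activin A gave 216 ± 25.6 and SB431542 197 ± 62.7 FPKM. Most of the sum was carried by a few genes. In WT the largest share was that of COL4A2, a chain of the basement membrane network, with a mean of 38.0%, followed by COL18A1 with 13.2% and COL11A2 with 8.50%. In knock-in cells COL18A1 held 39.8%, COL2A1 20.1% and COL4A2 10.9%. With Activin A the shares of COL18A1 and COL2A1 were 35.6% and 20.1%, and with SB431542 they were 43.7% and 19.3%. Collagen rows without a symbol are outside these sums and shares. COL9A1, which is such a row, averaged 10.6 FPKM in WT, against 6.79 for COL11A2.

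**Figure D1:**
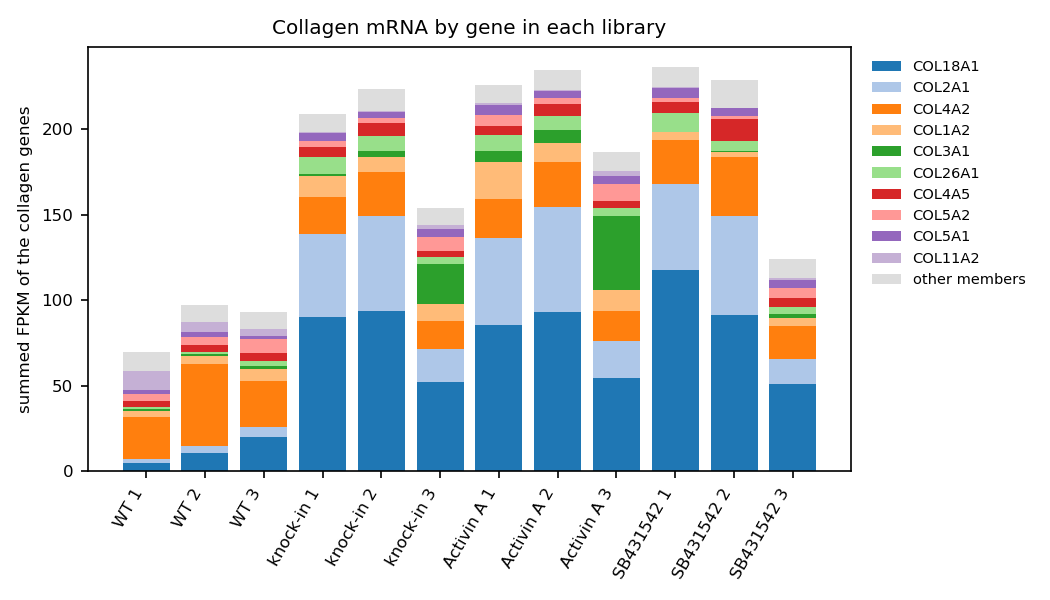
Summed FPKM of the 29 collagen genes in each of the 12 libraries, stacked by gene, with the 10 genes named in the legend and the remaining members in grey. COL4A2 is the largest block in WT, COL18A1 is the largest in the 9 libraries that carry the knock-in, and COL3A1 stands out in knock-in 3 and Activin A 3.

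All 10 fibrillar members were expressed (COL1A1, COL1A2, COL2A1, COL3A1, COL5A1, COL5A2, COL5A3, COL11A1, COL11A2 and COL27A1). The fibrillar class summed to 30.6 ± 2.95 FPKM in WT, 76.6 ± 4.58 in knock-in, 97.4 ± 2.82 in Activin A and 61.9 ± 20.1 in SB431542 cells (SD, n = 3). All 3 members of the basement membrane network (COL4A2, COL4A4 and COL4A5) were expressed, with sums of 37.5 ± 12.5, 27.1 ± 6.69, 27.6 ± 5.73 and 34.5 ± 11.3 FPKM in the same order. The 3 members of the FACIT class, which bind to the surface of fibrils (COL12A1, COL14A1 and COL16A1), were expressed at a summed mean of 3.60 to 4.78 FPKM per group. That sum leaves out the FACIT gene COL9A1, whose row has no symbol. COL9A1 alone averaged 10.6 FPKM in WT, 13.4 in knock-in, 12.7 in Activin A and 10.8 in SB431542 cells. In each of the other classes with an expressed member, that member was the only one. These were COL18A1 of 2 multiplexins, COL8A2 of 3 short-chain network genes, COL23A1 of 3 transmembrane genes and COL26A1 of the 2 genes outside the classes.

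The 9 members under 0.1 FPKM were COL6A3, COL6A5, COL6A6, COL8A1, COL10A1, COL13A1, COL15A1, COL17A1 and COL28A1. COL6A5, COL6A6 and COL28A1 were listed at 0 in all 12 libraries. Among the rest, the highest single value was 0.182 FPKM, that of COL13A1 in SB431542 3. COL10A1, the collagen of hypertrophic cartilage, and COL6A3, a chain of beaded filaments, stayed under 0.1 FPKM in every library. The members next to the threshold were COL13A1 with a mean of 0.0745 FPKM and COL4A4 with 0.138 FPKM. A test needed 0.1 FPKM in 3 of its libraries. COL13A1 met this in the knock-in comparison through WT 1, WT 2 and knock-in 2, and COL4A4 in the other comparisons only, so 20 members were tested in each.

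Another 9 rows carry no symbol in the tables but belong to collagens by their Ensembl identifiers. COL9A1, a FACIT chain of cartilage, averaged 11.9 FPKM over the 12 libraries, COL6A1 3.26, COL4A6 2.19, COL25A1 0.184 and COL9A3 0.103, and COL4A3, COL21A1, COL22A1 and COL24A1 were each under 0.1 FPKM. They are not counted as members, and their values are given beside those of related genes. COL4A1, COL6A2, COL7A1, COL9A2, COL19A1 and COL20A1 were not analysed here. Without COL4A1 and COL6A2, the major chains of types IV and VI are seen only in part. The class sums above leave out both genes and the 9 rows without a symbol.

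The knock-in cells differed from WT in a few collagens, among them COL18A1 and COL2A1, the most abundant members in knock-in cells. COL4A2, the most abundant member in WT, was not called. COL2A1, COL18A1 and COL26A1 were higher in knock-in cells, and COL11A2 was lower. The 16 others tested, among them both tested chains of type IV and all FACIT members, were not called. The test was limma on log2(FPKM + 1) within 1 table, over 14014 genes. For a call, a gene needed a log2 fold change of 1 or more in either direction together with a p of 0.05 or less after Benjamini-Hochberg adjustment. Called members were 4 of 20 (3 higher and 1 lower), and of all genes 2.31% were called (1.61% higher and 0.706% lower). The median log2 fold change over the 20 members was 0.16 and that over all genes -0.00. With 3 libraries against 3, the exact two-sided permutation test of a single gene cannot give a p under 0.1, and it gave 0.1 for each of the 4 called members.

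COL2A1 (ENSSSCG00000025523, chromosome 5 of Sscrofa11.1, 78350131 to 78380893) encodes the chain of type II collagen, the main fibril of cartilage. It stood at 2.37, 3.58 and 5.67 FPKM in WT 1 to 3 and at 48.4, 55.0 and 19.0 FPKM in knock-in 1 to 3. Every knock-in library was above every WT library, with line 3 lowest of the lines. The means were 3.87 ± 1.67 and 40.8 ± 19.1 FPKM (SD, n = 3), a ratio of 10.5, and the log2 fold change was 3.02 (SE 0.41, limma adjusted p = 0.0127). The call held in all 6 fits that each left out 1 library.

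COL18A1 (ENSSSCG00000038089, chromosome 13, 207907835 to 207984082) encodes a basement membrane collagen that carries heparan sulfate and whose end fragment is endostatin. Among the members it was the most abundant mRNA of the knock-in cells, at 90.4, 94.0 and 52.3 FPKM, and stood at 4.63, 11.0 and 20.2 FPKM in WT. The groups did not overlap, although WT spread over a 4.37-fold range, the widest of the expressed members in WT. The log2 fold change was 2.78 (SE 0.46, adjusted p = 0.0213). It was no longer called without WT 2 (adjusted p = 0.0542), knock-in 1 (0.0764) or knock-in 2 (0.0705).

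COL26A1 (ENSSSCG00000007678, chromosome 3, 9003126 to 9164074), a small collagen with an EMI domain, stood at 1.41, 1.46 and 2.74 FPKM in WT. In knock-in cells it stood at 10.4, 8.41 and 3.99 FPKM, so that the lowest knock-in library was close to the highest WT library. Its log2 fold change was 1.54 (SE 0.33, adjusted p = 0.0374). COL11A2 (ENSSSCG00000001473, chromosome 7, 25204496 to 25234880) encodes a chain of type XI collagen, which sits in the core of cartilage fibrils. It went the other way, from 10.9, 5.72 and 3.74 FPKM in WT to 0.938, 0.481 and 1.98 FPKM in knock-in cells. The log2 fold change was -1.82 (SE 0.38, adjusted p = 0.0350), and the lowest WT library was above the highest knock-in library. Each of the 2 genes lost its call without WT 1, WT 2, knock-in 1 or knock-in 2, at adjusted p between 0.0771 and 0.115 for COL11A2 and between 0.0928 and 0.120 for COL26A1. With no filter on low values they stood at 0.0699 and 0.0741.

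Type XI collagen is assembled from chains encoded by COL11A1, COL11A2 and, in modified form, COL2A1. These 3 genes did not move together. COL11A1 stood at 3.81, 2.05 and 2.78 FPKM in WT and 1.99, 4.05 and 3.03 in knock-in cells, overlapping ranges with a log2 fold change of 0.05 (95% interval -0.53 to 0.62). COL9A1, which also belongs to cartilage fibrils, stood at 9.28, 10.5 and 11.9 FPKM in WT and 19.0, 11.8 and 9.48 in knock-in cells, with an adjusted p of 0.478. Of 9 chondrocyte markers, ACAN, MATN1 and COMP were at or under 0.1 FPKM in every library. The sum over the 9 markers was 16.2 to 16.5 FPKM in WT and 7.20 to 12.7 in knock-in cells. The largest contribution in each group was that of SOX9, a transcription factor of cartilage, which averaged 12.5 FPKM in WT and 4.51 in knock-in cells (adjusted p = 0.0622). Of the 6 markers tested, 4 had a positive log2 fold change and 2 a negative one, and none was called. MATN3, a matrix protein of cartilage, was the marker with an adjusted p under 0.05, with means of 0.173 FPKM in WT and 1.27 in knock-in cells (log2 fold change 0.92, adjusted p = 0.0330).

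Type I collagen is normally assembled from COL1A1 and COL1A2 chains, with COL1A1 in excess. In these tables COL1A2 was the higher of the 2 genes in all 12 libraries. COL1A1 stood at 1.09, 1.46 and 0.838 FPKM in WT and at 0.739, 0.782 and 0.345 in knock-in cells, with a log2 fold change of -0.39 (SE 0.16, adjusted p = 0.162). COL1A2 stood at 3.56, 4.64 and 7.34 FPKM in WT and at 12.7, 9.02 and 10.2 in knock-in cells. Both pairs of groups were separate, in opposite directions, and neither gene was called. COL1A2 was near both thresholds, with a log2 fold change of 0.95 (SE 0.24, adjusted p = 0.0572), and without WT 3 it was called at 1.19 (adjusted p = 0.0219).

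COL3A1, the chain of type III collagen of loose connective tissue, differed more between the knock-in lines than between the groups. It stood at 0.796, 1.16 and 1.59 FPKM in WT and at 0.771, 3.32 and 23.2 FPKM in knock-in 1 to 3. The ratio of the means was 7.70, yet knock-in 1 lay below all WT libraries, and the log2 fold change of 1.40 had an SE of 0.83 (adjusted p = 0.297). With 1 library left out, this log2 fold change ranged from 0.36 to 2.25 and was never called. COL5A2, which lies next to COL3A1 on chromosome 15 with 16177 bp and no annotated gene between them, stood at 4.09, 4.70 and 8.01 FPKM in WT and 3.57, 2.92 and 7.75 in knock-in cells. COL5A1, its partner in type V collagen, was separate between the groups, with 2.38 ± 0.627 FPKM in WT and 4.38 ± 0.825 in knock-in cells, but was not called (log2 fold change 0.67, SE 0.19, adjusted p = 0.0758).

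In the basement membrane network, COL4A2 stood at 25.0, 48.1 and 26.8 FPKM in WT and at 21.3, 26.0 and 16.5 in knock-in cells. The ranges overlapped through knock-in 2 and WT 1, and the log2 fold change was -0.58 (95% interval -1.20 to 0.04, adjusted p = 0.195). COL4A5 and the unlabelled COL4A6, neighbours on the X chromosome, had log2 fold changes of 0.35 and 0.61 with adjusted p of 0.364 and 0.156. COL4A2 made up 35.7, 49.6 and 28.8% of the summed FPKM of the members in WT and 10.2, 11.7 and 10.7% in knock-in cells, while its own level was not called as different. Altogether 8 of the 20 tested members had groups that did not overlap, 6 higher (COL1A2, COL2A1, COL5A1, COL18A1, COL23A1 and COL26A1) and 2 lower (COL1A1 and COL11A2). Over all genes tested the share was 35.7% (19% higher and 16.7% lower), so this count is near the background.

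**Figure D2:**
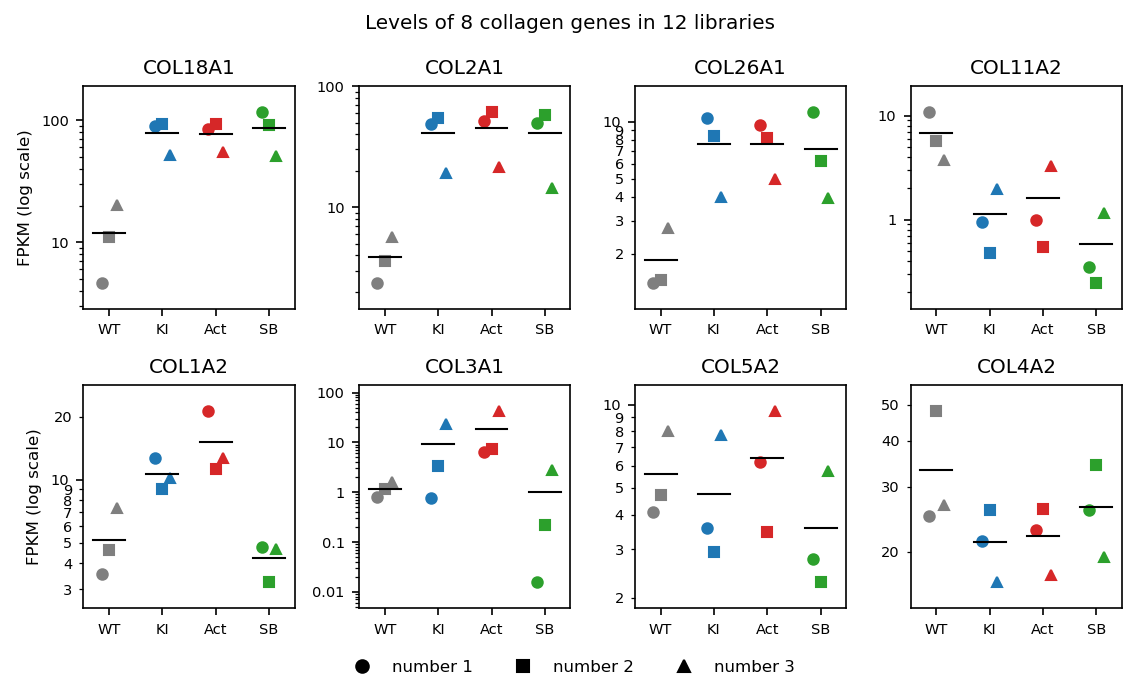
FPKM on a log axis of 8 collagen genes in WT, knock-in (KI), Activin A (Act) and SB431542 (SB) libraries. Points are libraries, shapes give the replicate or line number, and bars give group means. COL18A1, COL2A1 and COL26A1 are higher in every KI library than in any WT library, COL11A2 is lower, and COL1A2 and COL3A1 are higher in every Act library than in any SB library.

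Markers of other cell types moved with the knock-in comparison. Over 14 fibroblast or feeder markers the sum was 36.2 to 47.0 FPKM in WT and 86.1 to 97.6 in knock-in cells, with FAP and DPT listed at 0 in all libraries and POSTN at 0 in the knock-in group. Of the 10 markers of this list that were tested, DCN, TWIST1 and CD248 were called higher and 0 lower, against 1.61% and 0.706% of all genes. PDGFRA, S100A4 and MFAP5 had log2 fold changes of -0.16, -0.13 and -0.0050 and were not called, and LUM, under the filter, averaged 0.0706 FPKM in WT and 0.0174 in knock-in cells. Over 11 pericyte markers the sum was 45.2 to 57.9 FPKM in WT and 356 to 511 in knock-in cells, and TAGLN averaged 20.9 FPKM in WT and 403 in knock-in cells. TAGLN, ACTA2 and PDGFRB were called higher, 3 of the 10 tested, and 0 lower. MCAM, KCNJ8 and NOTCH3 had log2 fold changes of -0.02, 0.04 and 0.14 and were not called, and DES, under the filter, averaged 0.425 FPKM in WT and 0.0322 in knock-in cells. The sum of 7 endothelial markers stayed under 1.06 FPKM in all 12 libraries, and 5 of the 7 were at or under 0.1 FPKM throughout. The part of other cells in the collagen differences was not tested, and in bulk RNA a change in the number of cells of a type and a change in RNA per cell cannot be told apart. Over 7 primitive or visceral endoderm markers the sum was 14.4 to 18.3 FPKM in WT and 40.1 to 67.9 in knock-in cells. Most of it was APOA1 (means of 9.42 and 41.6 FPKM, called higher) and GATA6 (7.32 and 15.7 FPKM, not called), while SOX17, GATA4, FOXA2 and AFP were at or under 0.1 FPKM in all 12 libraries. Of the 8 pluripotency markers tested, NANOG and LIN28A were called higher and 0 lower. Transfection, selection and sorting cannot be told apart from the knock-in itself.

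Activin A and SB431542 act on the same receptor pathway in opposite ways, and their comparison asks which genes follow it. Of the collagens, COL3A1 and COL1A2 were called once the lines were paired, both higher with Activin A. Being higher in every line was not particular to them. Other members had ratios above 1 in lines 1 to 3, among them COL2A1 (1.02, 1.06 and 1.51) and COL5A1 (1.04, 1.08 and 1.02). The share of all genes with such ratios was not counted. The abundant COL18A1, COL2A1 and COL26A1 were not called in either fit. In the unpaired fit, limma over 13999 genes called 0 of the 20 tested members, while 0.0929% of all genes were called. COL1A2, COL3A1, COL14A1 and COL4A4 had an unadjusted p of at most 0.05 there, as did 12.8% of all genes. COL4A4 reached 0.1 FPKM in the 3 Activin A libraries and in SB431542 2 alone of the others, so it passed the filter through the group where it was high, and nothing is read from its p or from the count. With the line number as a block 2 members were called, both higher, where 0.707% of all genes were called (0.521% higher). The median log2 difference over the 20 members was 0.08, and over all genes -0.00.

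COL3A1 (ENSSSCG00000016034, chromosome 15, 93556914 to 93595678) stood at 6.57, 7.47 and 42.9 FPKM in Activin A 1 to 3. In SB431542 1 to 3 it stood at 0.0156, 0.215 and 2.73 FPKM. Activin A was higher within every line, and the lowest Activin A library was above the highest SB431542 library. The ratio was 422 in line 1, 34.8 in line 2 and 15.7 in line 3. The ratio of line 1 rests on 0.0156 FPKM, which is under the 0.1 FPKM taken as expressed. The log2 difference was 3.08, with an SE of 0.79 and an adjusted p of 0.201 without the block, and an SE of 0.17 and an adjusted p of 0.0121 with it. The size depends on the pseudocount. Without the block it was 4.79 with a pseudocount of 0.1 and 5.68 with 0.01, at adjusted p of 0.209 and 0.251. The block was fitted only with a pseudocount of 1 and with no library left out. How the paired calls depend on either was not tested.

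COL1A2 (ENSSSCG00000015326, chromosome 9, 74174484 to 74210407) stood at 21.3, 11.2 and 12.7 FPKM with Activin A and at 4.77, 3.24 and 4.66 FPKM with SB431542. The groups were separate, and the ratio within lines was 4.47, 3.46 and 2.73. The log2 difference was 1.59 (SE 0.25, adjusted p = 0.0932), and with the block the SE was 0.14 and the adjusted p 0.0236. COL1A1 did not follow it. It stood at 0.323, 0.597 and 0.214 FPKM with Activin A and at 0.521, 0.525 and 0.366 with SB431542, with line 2 opposite to the other lines and a log2 difference of -0.10 (95% interval -0.38 to 0.18).

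COL5A2, the neighbour of COL3A1, was higher with Activin A within each line, with 6.21, 3.47 and 9.49 against 2.76, 2.27 and 5.73 FPKM and ratios of 2.25, 1.52 and 1.66. Its log2 difference of 0.68 had an adjusted p of 0.509 without the block and 0.0632 with it. COL11A2 also had a ratio above 1 in each line, 2.86, 2.23 and 2.85, from 0.998, 0.547 and 3.27 FPKM with Activin A and 0.349, 0.245 and 1.15 with SB431542 (log2 difference 0.62, adjusted p = 0.553, and 0.0974 with the block). COL12A1, a FACIT member, had ratios under 1 throughout, 0.537, 0.499 and 0.546, with an adjusted p of 0.0712 under the block. None of these 3 genes was called.

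For COL18A1 and COL2A1 no difference was detected, with wide intervals. COL18A1 stood at 85.6, 93.3 and 54.7 FPKM with Activin A and at 118, 91.5 and 51.2 with SB431542, a log2 difference of -0.11 (95% interval -0.90 to 0.68, and -0.42 to 0.19 with the block). COL2A1 stood at 51.1, 61.5 and 21.6 FPKM against 50.0, 57.9 and 14.3, a log2 difference of 0.23 (95% interval -1.19 to 1.64, and -0.08 to 0.53 with the block). COL26A1 stood at 9.58, 8.22 and 4.98 FPKM against 11.3, 6.20 and 3.97. In all 3 genes the ranges of the 2 treatments overlapped, and the lines were further apart than the treatments.

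In the basement membrane network, COL4A2 stood at 22.8, 26.2 and 17.3 FPKM with Activin A and at 25.9, 34.3 and 19.3 with SB431542, lower with Activin A within each line by ratios of 0.882, 0.762 and 0.896. COL4A5 stood at 4.97, 6.75 and 4.08 against 5.99, 12.4 and 5.39 FPKM. Neither was called, with log2 differences of -0.23 and -0.45 and adjusted p of 0.147 and 0.144 with the block. Of the unlabelled rows, COL6A1 had a log2 difference of 0.85 and COL4A6 one of -0.79, with adjusted p of 0.0453 and 0.0479 under the block, below the threshold on the fold. COL4A4, at 0.271 ± 0.0819 against 0.0857 ± 0.0497 FPKM, and COL14A1, at 1.02 ± 0.0942 against 0.729 ± 0.0511 FPKM (SD, n = 3), were the other members whose groups did not overlap. Of the members whose groups did not overlap, all 4 were higher with Activin A, and over all genes the share was 9.19% for higher and 20% in either direction. Since COL4A4 is among them through the filter, nothing is read from this count.

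**Figure D3:**
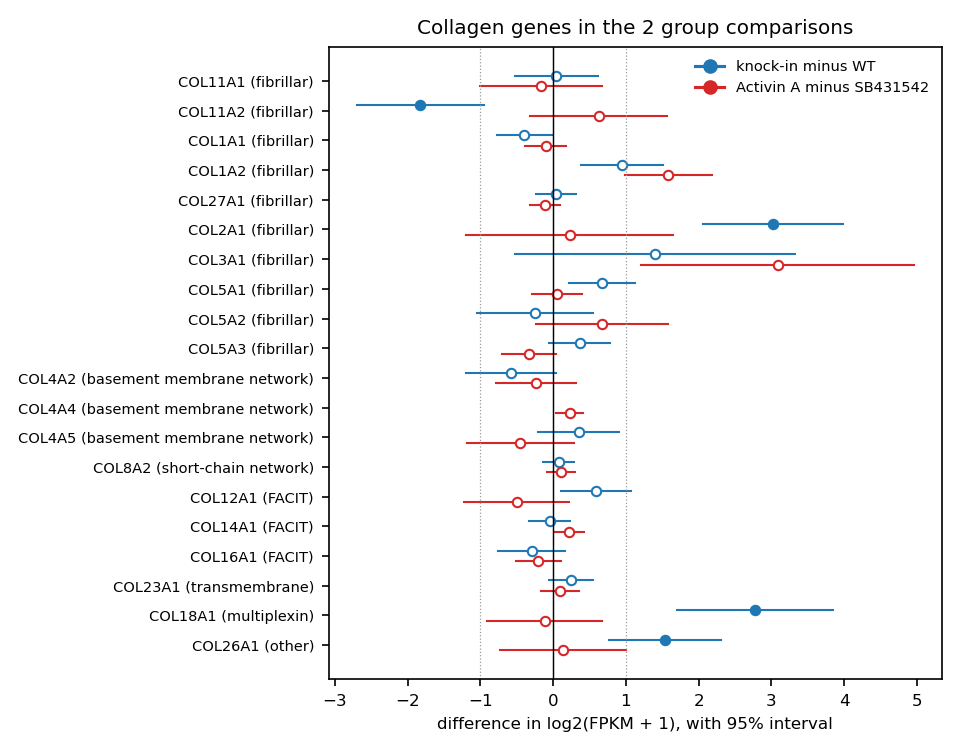
Differences in log2(FPKM + 1) with 95% intervals for the expressed members, knock-in minus WT in blue and Activin A minus SB431542 without the block in red. Filled points have an adjusted p of at most 0.05, and dotted lines mark a log2 difference of 1 in either direction. Only COL2A1, COL18A1, COL26A1 and COL11A2 are filled, all in the knock-in comparison.

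**Figure D4:**
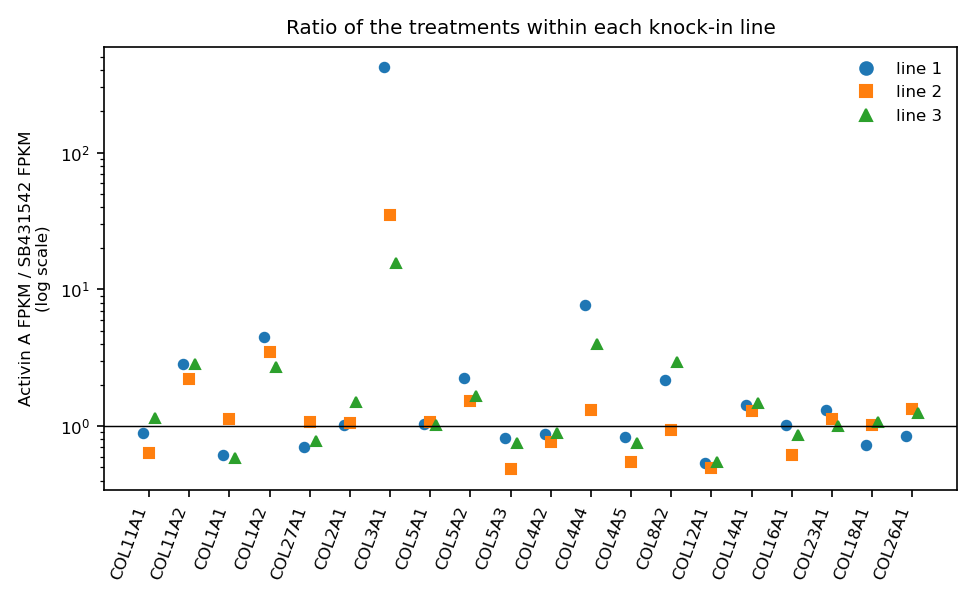
Ratio of Activin A to SB431542 FPKM within each of the 3 lines, on a log axis, for the 20 expressed members. COL3A1 lies highest in every line (422, 34.8 and 15.7), and COL1A2 lies between 2.73 and 4.47. COL18A1 lies between 0.726 and 1.07, and COL2A1 between 1.02 and 1.51.

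Fibroblast or feeder markers summed to 90.9 to 97.4 FPKM with Activin A and 75.7 to 83.1 with SB431542, and pericyte markers to 335 to 448 and 361 to 476. ACTA2 of the pericyte list was called lower with Activin A (log2 difference -1.13, limma adjusted p = 0.0346). It was the 1 call among 10 pericyte markers tested, where 0.0929% of all genes were called. Of the 10, 7 had a negative log2 difference, with TAGLN at -0.06. The 3 with a positive one were RGS5 (0.63), NOTCH3 (0.41) and CSPG4 (0.08). The fibroblast sums did not overlap between the treatments. Of the 9 markers of this list that were tested, 6 had a positive log2 difference and 3 a negative one, and 0 were called. DCN (1.20) and FBLN2 (1.02) were among the higher, and TWIST1 (-0.53) and CD248 (-0.33) among the lower. The part of such cells in the COL1A2 and COL3A1 differences was not tested. Levels in the treatments and in the knock-in cells stand in different tables and media, so they are set side by side with no test. COL1A2 was 15.1 ± 5.45 FPKM with Activin A, 10.6 ± 1.89 in knock-in cells and 4.22 ± 0.852 with SB431542 (SD, n = 3), and each SB431542 library lay below each knock-in library. COL3A1 followed the same order of means, 19.0 ± 20.7, 9.09 ± 12.3 and 0.988 ± 1.52 FPKM, with ranges that overlapped. COL18A1 had means of 77.9 ± 20.4, 78.9 ± 23.1 and 86.9 ± 33.6 FPKM in the same order, and COL2A1 of 44.7 ± 20.7, 40.8 ± 19.1 and 40.7 ± 23.2. Both were above the highest WT library in all 9 libraries that carry the knock-in.

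The 3 knock-in lines were compared across the 9 libraries that carry the knock-in, with the condition as a covariate. Each line has 1 library per condition, so the spread comes from the way a line differs between conditions. For 10 of the 20 expressed members (50%) the lines stood in the same order in all 3 conditions, as for 2616 (18.6%) of the 14059 genes with a mean of at least 0.1 FPKM. Line 3 was the lowest for 8 of the 14 members that had the same lowest line in every condition. The share of all genes with line 3 lowest was not counted, so nothing is read from that number. These contrasts span both tables, each normalized on its own, and share libraries with the comparisons above.

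Against line 1, line 3 had called differences in COL3A1 (higher) and in COL2A1 and COL26A1 (lower), 3 of the 20 members, where 0.755% of all genes were called. COL3A1 was 30.1-fold higher in the highest than in the lowest line in knock-in cells and 6.54-fold with Activin A. With SB431542 the ratio was 176, and it rests on the 0.0156 FPKM of line 1. Line 3 was highest and line 1 lowest under each condition. The log2 difference was 2.73 (SE 0.32, limma adjusted p = 0.00471), and 4.78 with a pseudocount of 0.01 (adjusted p = 0.00788). COL2A1 was lowest in line 3 in each condition, at 19.0, 21.6 and 14.3 FPKM, while line 1 held 48.4, 51.1 and 50.0 FPKM (log2 difference -1.41, SE 0.11, adjusted p = 0.00117). COL26A1 fell from 10.4, 9.58 and 11.3 FPKM in line 1 to 3.99, 4.98 and 3.97 in line 3 (log2 difference -1.11, SE 0.13, adjusted p = 0.00447). Without SB431542 1 the COL26A1 difference was -0.97 and below the threshold on the fold. With the Activin A and SB431542 libraries alone none of the 3 was called, although the log2 differences were 2.21 for COL3A1, -1.47 for COL2A1 and -1.06 for COL26A1 (adjusted p = 0.0541, 0.0541 and 0.105).

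By adjusted p alone, 9 of the 20 members differed between lines 3 and 1, against 14% of all genes. COL5A2 (0.77), COL11A2 (0.80) and COL11A1 (0.51) were higher in line 3 along with COL3A1, and COL18A1 (-0.87), COL12A1 (-0.72) and COL4A2 (-0.38) were lower, on the log2 scale. COL18A1 held 52.3, 54.7 and 51.2 FPKM in line 3 under the 3 conditions, below every library of lines 1 and 2. COL3A1 and COL5A2, which are neighbours, were both highest in line 3, where COL5A2 held 7.75, 9.49 and 5.73 FPKM.

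Line 2 against the mean of lines 1 and 3 gave 0 called members, where 0.971% of all genes were called. By unadjusted p at most 0.05, 12 of 20 members differed, against 30.1% of all genes, and by adjusted p alone 9 of 20, against 14.5%. Higher in line 2 were COL2A1 (log2 difference 0.92), COL4A5 (0.72), COL11A1 (0.67), COL4A2 (0.47), COL12A1 (0.42) and COL18A1 (0.37). Lower were COL5A2 (-0.76), COL11A2 (-0.69) and COL1A2 (-0.42). COL11A2 was lowest in line 2 in each condition, with 0.481, 0.547 and 0.245 FPKM. Of the unlabelled rows, COL4A6, like COL4A5, was higher (0.85, adjusted p = 0.00204) and COL6A1 was lower (-0.84, adjusted p = 0.00293). COL3A1 was called lower in line 2 only when knock-in 1 was left out (-1.02, adjusted p = 0.0202).

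**Figure D5:**
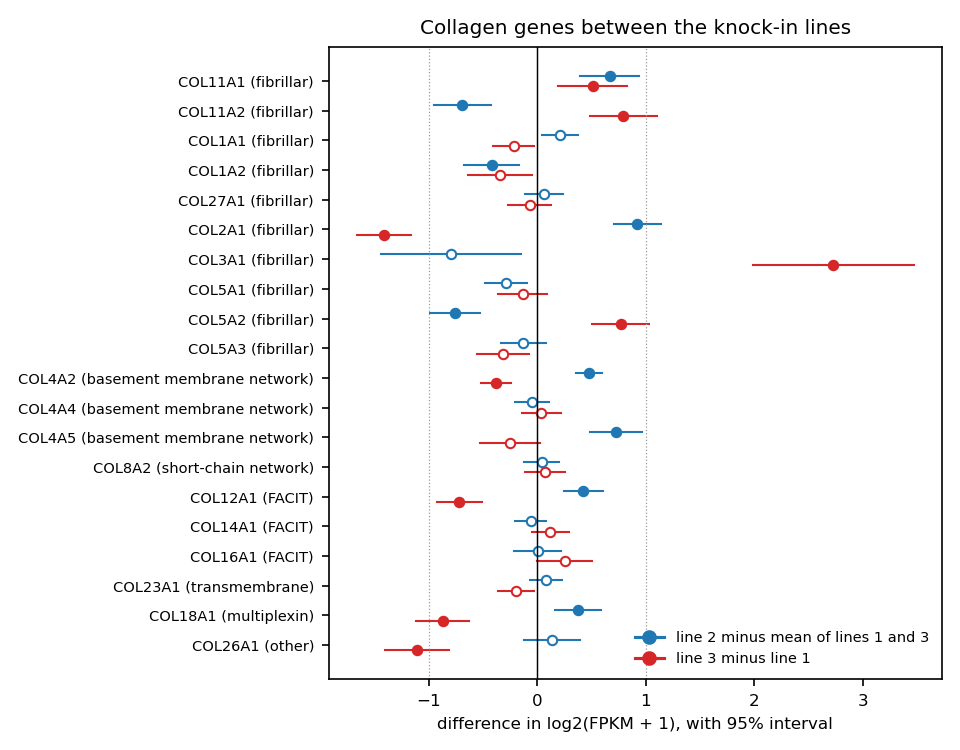
Differences in log2(FPKM + 1) with 95% intervals between knock-in lines for the expressed members, line 2 minus the mean of lines 1 and 3 in blue and line 3 minus line 1 in red, over 9 libraries. Filled points have an adjusted p of at most 0.05. COL3A1 lies furthest to the right (2.73) and COL2A1 furthest to the left (-1.41), both for line 3 minus line 1.

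Genes that make, process and bind collagen were followed in 5 lists with 68 genes found in the tables. Between knock-in cells and WT, 4 of 56 tested were called higher and 0 lower, against 1.61% and 0.706% of all genes. The median log2 fold change was 0.12 over the 56 and -0.00 over all genes. P3H1, a prolyl 3-hydroxylase of the endoplasmic reticulum, stood at 58.3, 64.2 and 73.0 FPKM in WT and at 171, 263 and 138 in knock-in cells (log2 fold change 1.49, adjusted p = 0.0168). LOXL1, a lysyl oxidase that cross-links matrix fibres, rose from 5.32, 3.34 and 5.97 to 17.2, 22.6 and 17.4 FPKM (1.79, adjusted p = 0.00785). DCN, a proteoglycan that coats fibrils, and NID1, a linker protein of basement membranes, rose by 1.49 (adjusted p = 0.0312) and 1.26 (adjusted p = 0.0151), the latter by 1.99 with a pseudocount of 0.01. LOXL1 was called in all 6 fits that left out a library, P3H1 and NID1 in 4 and DCN in 2. P3H1 lost its call without WT 1 or knock-in 1 (adjusted p = 0.0565 and 0.0555), and NID1 without knock-in 1 or knock-in 2 (0.0616 and 0.0535). DCN lost it without WT 1, WT 2, knock-in 2 or knock-in 3 (0.0853, 0.0743, 0.0882 and 0.0661) and with no filter (0.0599).

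By list, called members were 1 of 21 for biosynthesis (P3H1), 1 of 11 for processing and cross-linking (LOXL1), 2 of 11 for fibril and basement membrane partners (DCN and NID1), 0 of 7 receptors and 0 of 6 degradation genes, where 2.31% of all genes were called. Between Activin A and SB431542, 0 of 57 partners were called, with 8 of them at an unadjusted p of at most 0.05, where 12.8% of all genes were. With the block the count was again 0, although P3H1 (-0.57, adjusted p = 0.0192), COLGALT2 (0.66, 0.0481) and MMP2 (0.60, 0.0491) were under 0.05. Between lines, ADAMTS3, a procollagen N-proteinase, was the single called partner, 1 of 57 for line 2, where 0.971% of all genes were called. It held 5.96, 7.28 and 10.3 FPKM in line 2 under the 3 conditions and between 0.623 and 1.52 FPKM in lines 1 and 3 (log2 difference 2.08, adjusted p = 0.000894).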

How the data were processed

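RNA sequencing of 12 libraries was analysed from 2 tables of 24358 genes. The authors deposited FPKM per gene, made with StringTie 1.3.3 on Ensembl release 97 after trimming (Trim Galore) and HISAT2 2.0.4 alignment to Ssc11.1; their featureCounts 1.6.4 counts were not used here. Whether counting used strand is not given in the sources used here. Coordinates are those of RefSeq for Sscrofa11.1, and names of unlabelled rows came from their Ensembl identifiers.

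Tests used limma 3.58.1 with a variance trend in R 4.3.3 on log2(FPKM + 1), which understates the change of low genes. Genes needed 0.1 FPKM in 3 libraries, and p-values were adjusted by Benjamini-Hochberg over all genes tested. Tests stayed within a table, except between lines. The script was tested on simulated data. Nothing in the labels says that WT libraries came from separate cultures, so p-values measure the spread between these libraries.

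Labels number the libraries 1 to 3 as the lines are numbered. Across 13891 genes, deviations from group means of same-numbered libraries correlated at 0.40 to 0.59 between Activin A and SB431542 and at 0.51 to 0.66 between either and knock-in cells, so the numbers were taken to pair these groups.

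The members and lists were chosen with earlier results of these data known. Genes named with values in every library are members called or with an adjusted p of at most 0.05 in a test, or with a mean of at least 5 FPKM, and the other chains of their collagen types. Partners were named where called, COLGALT2 and MMP2 after their values were seen, as were COL4A4, COL4A6, COL5A1, COL14A1 and the markers. LAIR1, MMP1 and CTSK were not analysed here. Figures were drawn with matplotlib 3.10.9.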

Additional observations from a re-analysis of the deposited data

How the results depend on the processing

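The fits were repeated with smaller pseudocounts (0.1 and 0.01), without a filter or with 1 FPKM, on TPM, after median-ratio or quantile scaling, without the variance trend, by adjusted p alone, with the replicate block and with each library left out. The cause of each change was not tested.

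Of the 4 collagens called between knock-in and WT cells, 2 were called with no filter and 1, COL2A1, with the replicate block, where numbers do not pair the libraries (correlations of -0.02 to 0.09); leaving out 1 library gave 1 to 5. Between Activin A and SB431542 the count of 0 became 2 with the replicate block and, unpaired, stayed at 0 without any 1 library. The block was not combined with another setting. For line 2 the count of 0 became 1 with a pseudocount of 0.1, of 0.01 and with TPM (COL11A2 each time, and the unlabelled COL6A1 was also called there), 9 by adjusted p alone, and 0 to 1 without a library. For line 3 against line 1 the count of 3 became 5 with a pseudocount of 0.1, of 0.01 and with TPM, 9 by adjusted p alone, 0 with the Activin A and SB431542 libraries only, and 2 to 3 without a library.

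Pairing changed no other collagen call between the treatments. Among the named collagens, signs changed only for uncalled values and only when 1 library was left out. Between knock-in and WT, COL11A1 ranged from -0.14 to 0.24, COL5A2 from -0.59 to 0.0014 and COL6A1 from -0.14 to 0.50. Between Activin A and SB431542, COL26A1 ranged from -0.17 to 0.48, COL2A1 from -0.39 to 0.67, COL18A1 from -0.45 to 0.15 and COL11A1 from -0.44 to 0.17.

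Over all genes, the 324 calls between knock-in and WT became 538 and 501 with the smaller pseudocounts, 199 with no filter, 1012 by adjusted p alone and 145 to 446 without a library. The 13 between treatments became 8 with a pseudocount of 0.01, 5 with no filter or with 1 FPKM, 7 without the trend, 99 with the block and 0 to 5 without a library. The 139 of line 2 became 386, 455, 221 and 2077 with the smaller pseudocounts, TPM and adjusted p alone, and the 108 of line 3 became 330, 362, 184 and 2001, and 27 with the treatments only. Read depth is unknown. The relative depth estimated from low genes was lower in WT than in the other groups, and values near 0.1 FPKM are the least certain.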
